A study of Mus musculus with 6 samples.

Results

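The genes described here are the major urinary protein (Mup) genes and the receptor genes annotated for pheromone binding, 47 of the 33965 genes in the deposited table. They were taken by a name that begins with Mup and a number or with Mup-ps, or by the gene ontology term for pheromone binding in the table's annotation. The rule found 19 Mup genes, 5 Mup pseudogenes and 23 vomeronasal receptor genes of the Vmn1r class. The family was selected on its counts in GB2 against PBS tumors, so those values are a description of these 6 tumors. The members' calls in the fit over all genes are listed once, beside the share of all genes, and nothing is read from them. Mup4, Mup5 and Mup6 were not analysed here.

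Bulk RNA-seq was measured in 6 tumors of MC38, a mouse colon carcinoma cell line, grown under the skin of C57BL/6 mice, which are female in the study's methods. The PBS group held 3 tumors from mice given PBS, a buffered saline. The GB2 group held 3 tumors from mice given GB2, in which a disulfide bond links MSA-2, an agonist of STING, with artesunate as a prodrug. The tumors are numbered here as in their labels, the labels do not state that each came from a different mouse, and a whole piece of tumor was sequenced, so fewer cells of a type and less RNA per cell cannot be told apart.

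Major urinary proteins are small lipocalins, barrel-shaped carriers that hold volatile pheromones and release them slowly from urine marks. In mice they are made mainly in the liver, at much higher levels in males, under the control of growth hormone, testosterone and glucocorticoids. The Vmn1r genes encode receptors of sensory neurons in the vomeronasal organ.

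The Mup genes are near-copies of each other, which limits how far a value can be assigned to a single gene. All 19 matched a coding transcript of GENCODE vM21. In coding sequence, 16 of them were 98.3% to 99.8% identical to each other, with 1 to 9 bases between any pair. The other 3 stood apart. Mup20 was at most 91.4% identical to a gene of the 16, Mup21 at most 85.2% and Mup3 at most 84.1%, while Mup3 and Mup21 were 95.0% identical to each other. A stretch of 60 coding bases shows this. Capitals mark bases that differ from the commonest base at that place, and all sequences are given 5′ to 3′ on the coding strand.
Mup9: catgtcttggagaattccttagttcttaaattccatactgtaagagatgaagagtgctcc
Mup1: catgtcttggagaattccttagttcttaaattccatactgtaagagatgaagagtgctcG
Mup7: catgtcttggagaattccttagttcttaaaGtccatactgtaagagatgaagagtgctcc
Mup10: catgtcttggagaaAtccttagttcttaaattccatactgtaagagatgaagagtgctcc
Mup20: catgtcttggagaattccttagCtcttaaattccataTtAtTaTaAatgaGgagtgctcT
Mup3: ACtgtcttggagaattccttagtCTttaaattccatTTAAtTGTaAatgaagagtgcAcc
Mup21: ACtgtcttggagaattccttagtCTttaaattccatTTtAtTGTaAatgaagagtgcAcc

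The stretch of Mup9 was also that of Mup16, Mup18 and Mup19. Mup1 shared its stretch with Mup2, Mup11, Mup12 and Mup15, Mup7 with Mup17, and Mup10 with Mup22. In this stretch Mup20 differed from the commonest bases at 8 places, Mup21 at 12 and Mup3 at 13. A read of 150 bases, the length in the labels, often could not have told the 16 genes apart. The share of 150-base windows of a transcript that occur in no other Mup transcript was 100% for Mup3 and for Mup21, 68.9% for Mup20, 59.6% for Mup17 and 36.9% for Mup8. It lay between 0% (Mup22) and 27.6% (Mup16) for the other 14. By this measure the counts of Mup3 and Mup21 depend least on how shared reads were assigned, followed by those of Mup20, and the sum over the family depends on it less than single members of the 16.

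**Figure D1:**
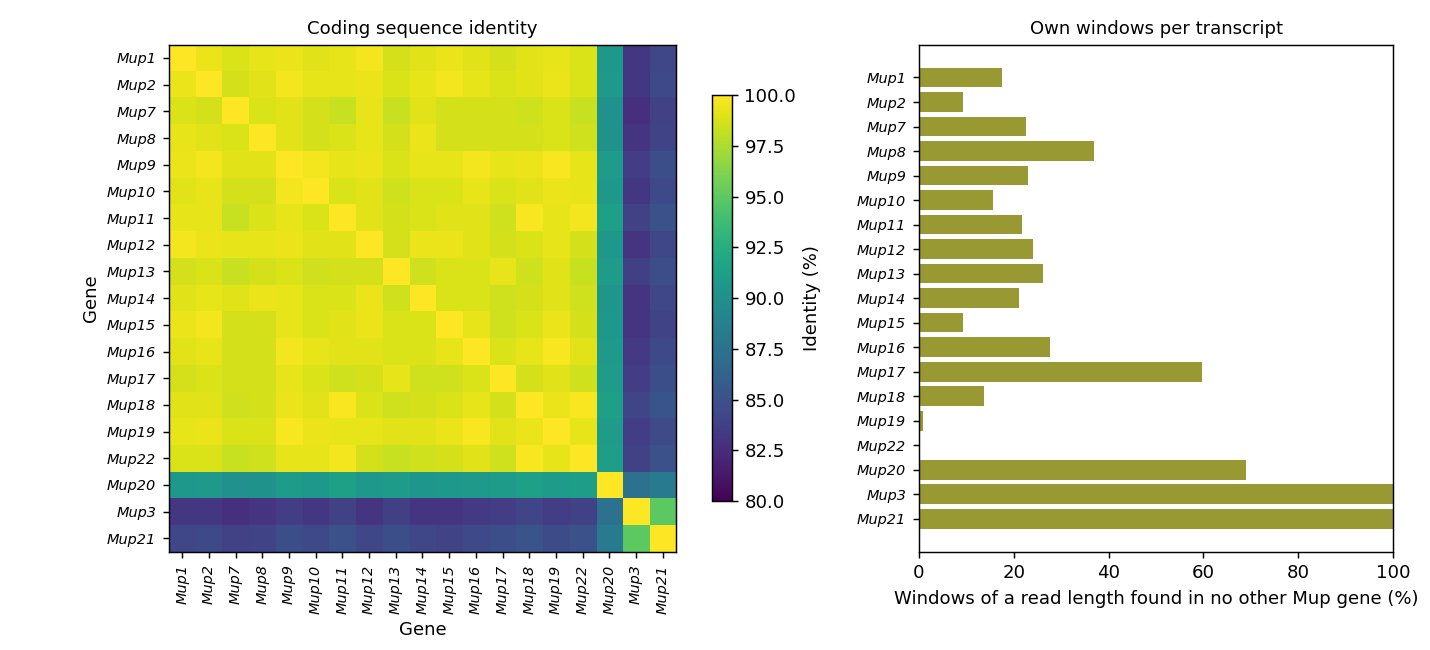
Left, percent identity between the coding sequences of the 19 Mup genes (colour scale from 80% to 100%); right, percent of 150-base windows of each transcript that occur in no other Mup transcript. A block of 16 genes is at least 98.3% identical, and Mup20, Mup3 and Mup21 lie outside it.

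The similarity extends to the sequence around the starts of the genes. RefSeq promoters on GRCm38.p6, from 250 bases before to 50 bases after the start, were at hand for 12 of the Mup genes. The 8 letters TATATAAG, a form of the TATA box searched on both strands, occurred in 11 of these 12 and in 331 of 32851 promoter windows of all genes (1.01%). It began 31 bases before the annotated start in Mup9 and Mup19 and 27 bases before it in Mup2. It began 11 bases before the start in Mup3, 8 in Mup21 and 2 in Mup11, and 12 bases after the start in Mup14. The match is a description of the letters and not a measured site. Windows of 48 bases around it are shown for a gene of the 16 and for the 2 divergent genes that hold it, with the match in capitals.
Mup2: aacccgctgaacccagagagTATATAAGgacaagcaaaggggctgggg
Mup3: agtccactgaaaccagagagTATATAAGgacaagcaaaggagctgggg
Mup21: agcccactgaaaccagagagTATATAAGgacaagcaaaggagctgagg

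These windows lie at chr4:60139856-60139903 for Mup2, chr4:62087301-62087348 for Mup3 and chr4:62150822-62150869 for Mup21 on GRCm38.p6, minus strand. The window of Mup2 was the same, base for base, in 5 genes, the others being Mup11, Mup15, Mup17 and Mup19.

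The libraries held 64764405 to 69878156 counts in PBS tumors and 81210553 to 83690056 in GB2 tumors, and about 4 counts stand for 1 read pair. Fewer than 3 read pairs (12 counts) were treated as under the detection limit, which is 0.141 to 0.203 CPM (counts scaled to the library size) across the tumors. GB2 tumor 1 stood apart in genes of the liver. It had under 12 counts in 12 of 20 liver genes, and the other 5 tumors had under 12 counts in 0 of them. Genes with under 12 counts in 1 tumor and at least 100 in each of the other 5 numbered 76 for GB2 tumor 1, 4 for PBS tumor 1, 1 for PBS tumor 3 and 0 for the rest, by a limit chosen after the values were seen. Mup3 and Mup20 are among the 76. The ratios of summed levels are therefore given with and without GB2 tumor 1. The GB2 libraries were larger, so orders of tumors and overlaps between groups are stated in CPM. The MC38 tumors carried few counts of epithelial markers, with Epcam at 12 to 27 counts in PBS tumors and 64 to 86 in GB2 tumors.

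Mup RNA was found in all 6 tumors, and its level was lower on average in the GB2 group, with overlap between the groups. Summed over the 24 Mup entries, PBS tumors 1, 2 and 3 held 1648, 14425 and 9107 counts. The sums were 228, 4625 and 1987 in GB2 tumors 1, 2 and 3. PBS tumors 2 and 3 were the highest of the 6 and GB2 tumor 1 the lowest, while PBS tumor 1 lay below GB2 tumor 2. In CPM the sums were 120 ± 88.7 (SD, n = 3) in PBS and 27.2 ± 26.7 (SD, n = 3) in GB2 tumors, a ratio of 4.42. In FPKM, which the authors divided by transcript length, the ratio was 4.63. Without GB2 tumor 1 the ratio was 3.05 in CPM and 3.19 in FPKM. In CPM, it was 2.88 when PBS tumor 2 was omitted and 9.23 when GB2 tumor 2 was omitted. The family took at most 0.0206% of a library, in PBS tumor 2.

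**Figure D2:**
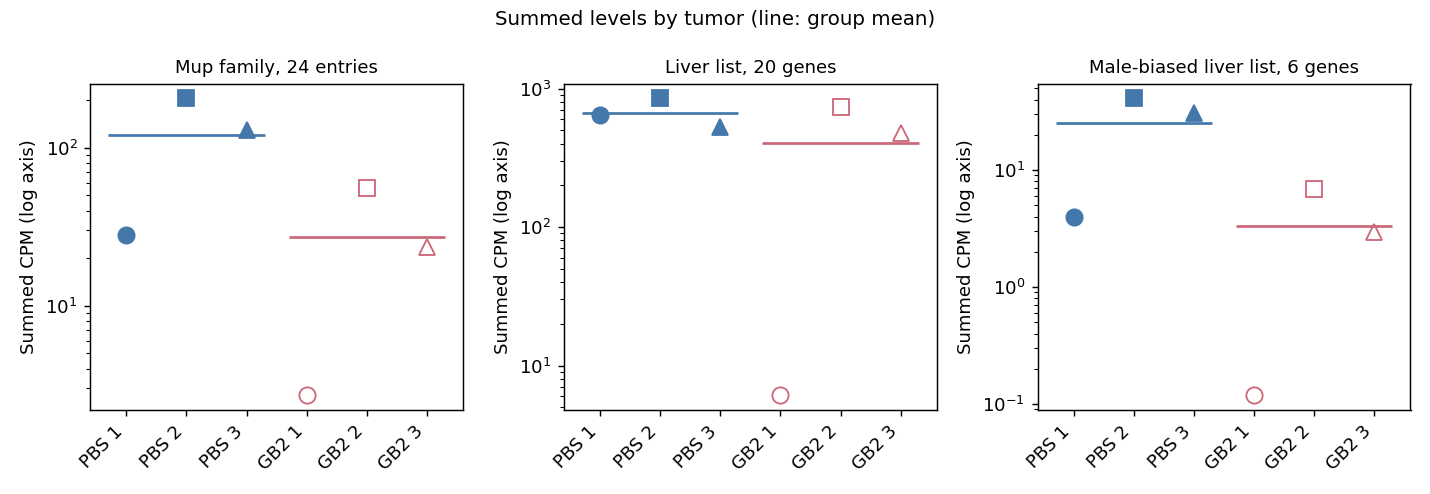
Summed CPM (log axes) in each tumor for the 24 Mup entries, the 20 liver genes and the 6 male-biased liver genes; filled symbols are PBS tumors, open symbols GB2 tumors and lines group means. The Mup sum ran from 2.72 CPM in GB2 tumor 1 to 205 CPM in PBS tumor 2, and PBS tumor 1 (27.9 CPM) lay between GB2 tumors 2 and 3.

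The genes with most sequence of their own showed the same order of groups. Mup3, with the highest level per length in PBS tumors (16.9 FPKM on average), had 269, 2193 and 1470 counts in PBS tumors 1 to 3 and 0, 438 and 411 in GB2 tumors 1 to 3. PBS tumors 2 and 3 were the high ones, and PBS tumor 1 lay below GB2 tumors 2 and 3. Its mean was 18.8 ± 13.4 CPM (SD, n = 3) in PBS and 3.37 ± 2.92 CPM (SD, n = 3) in GB2 tumors, and a count of 0 in GB2 tumor 1 allows up to 0.143 CPM. Mup20, known as darcin, is the male pheromone that draws females to a scent mark. It had 167, 859 and 882 counts in PBS tumors and 0, 314 and 210 in GB2 tumors, or 9.16 ± 5.49 CPM (SD, n = 3) against 2.08 ± 1.92 CPM (SD, n = 3). Its groups overlapped in the same way, since PBS tumor 1 lay below GB2 tumor 2. The log2 fold changes of the edgeR fit, GB2 against PBS, were -2.48 for Mup3 and -2.14 for Mup20. They were -1.90 and -1.55 without GB2 tumor 1, and -2.95 and -2.88 without GB2 tumor 2. Mup21 had 0, 26 and 9 counts in PBS tumors and 0, 8 and 0 in GB2 tumors, which is too few to pass the filter. Summed over these 3 genes, the ratio of PBS to GB2 means in CPM was 5.14, and it was 4.30 for the 16 near-identical genes. Without GB2 tumor 1 these ratios were 3.42 and 2.99.

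Within the 16, 5 genes had every GB2 tumor below every PBS tumor in CPM, as did 6.68% of all genes tested. Mup7 had 216, 1438 and 1439 counts in PBS tumors and 0, 93 and 41 in GB2 tumors, the most negative log2 fold change among the members, at -4.79. Mup22 had 244, 1576 and 599 counts against 82, 234 and 298, and it was the most abundant Mup gene of GB2 tumor 1. The other 3 were lower in level. Mup13 had 74, 895 and 324 counts in PBS tumors and 16, 70 and 87 in GB2 tumors. Mup19 had 73, 376 and 346 against 0, 66 and 78, and Mup16 had 36, 278 and 375 against 0, 9 and 38. These 5 have between 0% and 27.6% of their windows to themselves, so the split of reads among them is uncertain. Their log2 fold changes also moved when tumors were left out. Mup7 went to -5.92 without GB2 tumor 2. Without PBS tumor 2, Mup22 went from -2.26 to -1.37 and Mup13 from -3.17 to -2.09. Mup16 went from -4.14 to -5.88 without GB2 tumor 3. Mup19 ran from -3.26 (without GB2 tumor 3) to -2.16 (without GB2 tumor 1).

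In the other near-identical genes the groups overlapped. Mup17 had 215, 1056 and 1111 counts in PBS tumors and 0, 879 and 94 in GB2 tumors, with GB2 tumor 2 near the high PBS tumors. Mup18 was at 0, 537 and 541 counts against 0, 83 and 0. Mup11 was at 0, 705 and 480 against 56, 5 and 228. In both of these genes PBS tumor 1 held no count. Mup12 had 18, 720 and 122 counts against 0, 174 and 27, and Mup8 had 18, 471 and 96 against 0, 134 and 26. Mup2 had 44, 539 and 130 against 14, 161 and 55. PBS tumor 2 was the highest in these 3 genes, and GB2 tumor 2 lay above PBS tumor 3. Mup15 had 30, 319 and 459 counts against 7, 72 and 0, and Mup14 had 42, 206 and 299 against 18, 81 and 61. PBS tumor 3 was the highest in both. The log2 fold changes of these 8 genes ran from -1.56 (Mup17) to -3.93 (Mup18), and the sizes of all but Mup14 rested on single tumors. Mup14, at -2.04 with all tumors, stayed between -2.49 and -1.51 when any 1 tumor was left out. Mup11 went from -2.30 to -3.94 without GB2 tumor 3. Without PBS tumor 2, Mup12 went from -2.35 to -0.34, Mup8 from -2.12 to -0.38 and Mup2 from -1.90 to -0.49. Without GB2 tumor 2, Mup17 went to -4.36, Mup12 to -4.66, Mup8 to -4.16 and Mup15 from -3.60 to -6.48, and Mup18 had no count left in the GB2 group. None of the 8 changed sign when any 1 tumor was left out.

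In 3 more genes the direction itself rested on single tumors. Mup1, a circulating form linked to glucose and lipid metabolism, had 26, 631 and 125 counts in PBS tumors and 0, 728 and 25 in GB2 tumors. Mup9 had 0, 674 and 50 counts against 0, 574 and 0, and Mup10 had 92, 807 and 226 against 33, 431 and 243. In each of them PBS tumor 2 and GB2 tumor 2 were the highest tumors of their groups. The log2 fold changes with all 6 tumors were -0.30 for Mup1, -0.58 for Mup9 and -0.94 for Mup10. Without PBS tumor 2 they were 1.45, 2.68 and 0.24. Mup1 and Mup9 were also at or above 0 without GB2 tumor 1 (0.28 and 0.01) and without GB2 tumor 3 (0.23 and 0.01). Without GB2 tumor 2 the move was the other way. Mup1 went to -4.64 and Mup10 to -1.72, and Mup9 had no count left in the GB2 group.

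**Figure D3:**
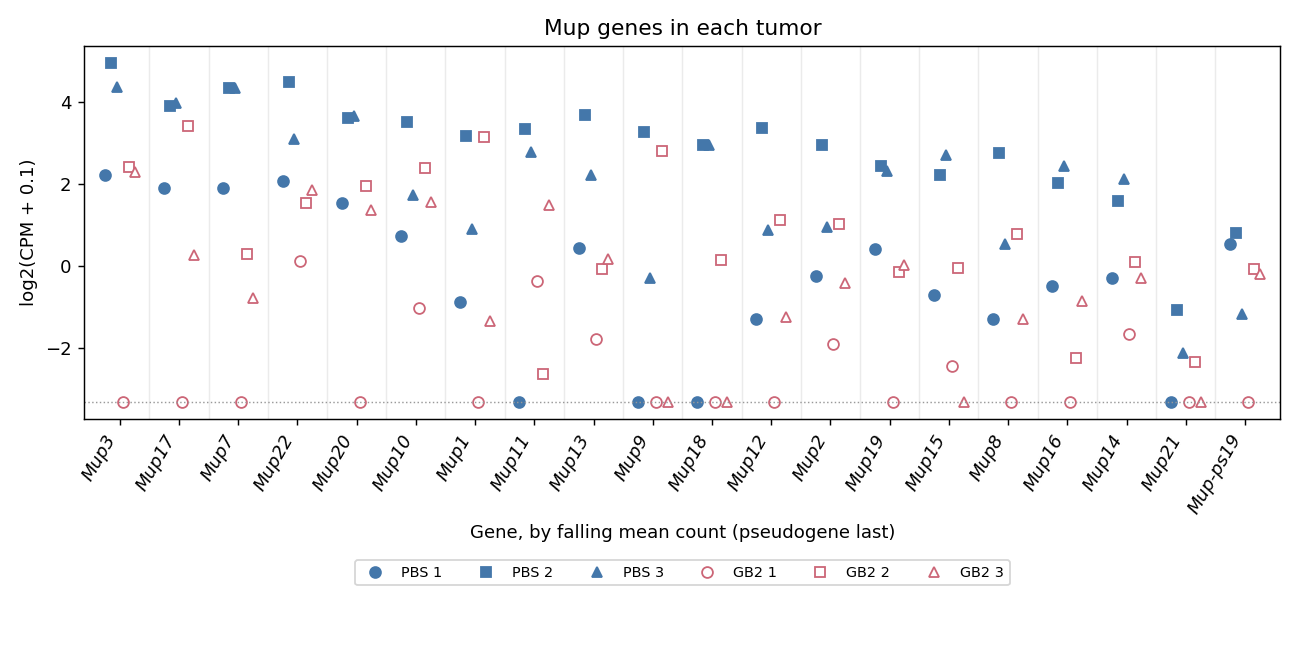
Level of each Mup gene and of Mup-ps19 in each tumor as log2(CPM + 0.1); blue filled symbols are PBS tumors, red open symbols GB2 tumors, and the dotted line is a count of 0. PBS tumor 2 or 3 was the highest tumor in each of the 18 Mup genes with a mean count of at least 10, and GB2 tumor 1 was at 0 in 11 of them.

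In CPM, PBS tumor 2 was the highest tumor in 12 of these 18 genes and PBS tumor 3 in 6. GB2 tumor 1 was the lowest, or tied for it, in 16, and GB2 tumor 2 lay above PBS tumor 1 in 13. PBS tumor 1 was under the detection limit in 3 of the 18, GB2 tumor 1 in 12, GB2 tumor 2 in 2 and GB2 tumor 3 in 3. The 7 genes with a count in GB2 tumor 1 were all of the near-identical group.

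Among all members, 21 passed the filter on low counts: 18 Mup genes, 1 pseudogene and 2 receptors. The 18 Mup genes had negative log2 fold changes from -0.30 to -4.79, with a median of -2.28, beside a median of -0.02 over the 19602 genes tested. Without GB2 tumor 1, 16 of the 18 were negative and the median was -1.82. Filtering can keep a gene because of the group where it is high, so these counts carry no weight of their own. Of the 21 members, edgeR's quasi-likelihood test called 0 (adjusted p below 0.05 with a fold of 2 or more), and the share of all genes called was 0%. DESeq2 called 3 of the 21 members (Mup13, Mup16 and Mup22), and 385 of the 19602 genes tested. With the unadjusted p below 0.05 and that fold, edgeR counted 6 members as lower, where the share of all genes was 0.918%. Among all genes tested, 1360 had an unadjusted p below 0.05. Every GB2 tumor lay below every PBS tumor in 5 members, beside 6.68% of all genes tested. These values were known when the family was selected.

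The pseudogenes added little. Mup-ps19, on chromosome 4 like most of the family, had 79, 115 and 24 counts in PBS tumors and 0, 71 and 65 in GB2 tumors, and the groups overlapped. Mup-ps13, Mup-ps16 and Mup-ps22 had at most 5 counts in any tumor, and Mup-ps18 had 0 throughout. Mup-ps22 is the 1 entry outside chromosome 4, on chromosome 11.

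The receptors were at or near the detection limit. Of the 23 Vmn1r genes, 9 had 0 counts in all tumors, 12 had a mean count above 0 and under 10, and 2 had a mean of at least 10. Vmn1r4 had 8, 35 and 31 counts in PBS tumors and 32, 25 and 46 in GB2 tumors, with a log2 fold change of 0.19. That direction rested on single tumors, with -0.18 without PBS tumor 1 and -0.07 without GB2 tumor 3. Vmn1r32 had 14, 16 and 12 counts against 14, 0 and 16. In both, the groups overlapped. Among the 12 lower ones the highest value was 20 counts, for Vmn1r80 in PBS tumor 1, which had 4 counts in each of the other PBS tumors and 0 in GB2 tumors. The 23 receptors together held 84, 78 and 48 counts in PBS tumors, against 46, 25 and 66 in GB2 tumors. The ratio of PBS to GB2 means in CPM was 1.97, and 1.98 without GB2 tumor 1. Of 3 signalling genes that vomeronasal neurons use, the G protein subunits Gnai2 (log2 fold change 0.23) and Gnao1 (0.27), which many cell types express, had at least 1578 counts in every tumor. The channel Trpc2 had 0, 0 and 299 counts in PBS tumors and 0, 16 and 264 in GB2 tumors. Of the 2 tumors with most Mup counts, it was thus at 0 in PBS tumor 2 and highest in PBS tumor 3. Of these 3 genes, 2 were higher and 1 lower in GB2 tumors, with a median log2 fold change of 0.23 and 0 called.

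On the table's own positions, 23 of the 24 Mup entries lie on chromosome 4 between 60066470 and 62069100, Mup7 first. These positions do not match GRCm38, the build that the submitters' notes name as mm10, in most genes. Within 500 kb of the cluster, 22 other genes are listed, and 17 passed the filter. Of these, 9 were higher and 8 lower in GB2 tumors, with a median log2 fold change of 0.03 and 0 called. Before the cluster lie Hsdl2 (0.03), E130308A19Rik (0.03), Inip (0.17), Snx30 (0.34) and Gm12543 (-0.50). After it lie Zfp37 (-0.42), Slc31a2 (-0.72), Fkbp15 (0.03), the copper transporter Slc31a1 (0.28), Cdc26 (-0.34), Prpf4 (0.26), Hdhd3 (-0.13), the heme enzyme Alad (-0.34), Pole3 (-0.26), 4933430I17Rik (0.32) and Rgs3 (0.42). Gm13775, inside the cluster, had at most 11 counts in any tumor, with a log2 fold change of -1.57. The 16 genes tested on either side of the cluster had at least 59 counts in GB2 tumor 1. Hsdl2 was there at 34.3 CPM, against 28.1 to 35.7 CPM in the other 5 tumors, and Hdhd3 at 0.703 CPM, against 1.25 to 1.69 CPM.

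Since Mup proteins are made mainly in the liver, 20 genes that mark hepatocytes were set beside them. Albumin (Alb), the main plasma protein, had 19813, 24480 and 14129 counts in PBS tumors and 109, 30023 and 21704 in GB2 tumors. Ahsg, the plasma protein fetuin-A, had 2464, 3285 and 1820 counts against 21, 3695 and 2630. Cyp2e1, a hepatic cytochrome P450, had 1179, 3382 and 2013 against 228, 2899 and 1332. Alb, Ahsg and Cyp2e1 were high in 5 tumors and low in GB2 tumor 1. In 4 of the 20 genes (Fabp1, Fga, Fgg and Serpina3k) every GB2 tumor lay below every PBS tumor in CPM, as did 6.68% of all genes tested. Serpina3k, named after its values were seen, had 16.4, 50.6 and 30.8 CPM in PBS tumors and 0.0953, 15.4 and 9.95 CPM in GB2 tumors. Like the Mup sum, it was highest in PBS tumors 2 and 3. The summed list ranged from 526 to 847 CPM in PBS tumors and from 6.12 to 729 CPM in GB2 tumors. Of the 20 genes, 19 were lower and 1 higher in GB2 tumors, with a median log2 fold change of -0.85 and 0 called. Without GB2 tumor 1, 17 were lower and 3 higher, with a median of -0.29. Their part in the Mup result was not tested.

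Relative to the liver list, the Mup genes did not order the tumors by group. Mup counts per 100 liver-list counts were 4.35, 24.2 and 24.5 in PBS tumors 1 to 3. They were 44.4, 7.62 and 4.88 in GB2 tumors 1 to 3, where the value of tumor 1 rests on 228 Mup counts and 514 liver counts. Thus PBS tumor 1 and GB2 tumors 2 and 3 were close to each other, and PBS tumors 2 and 3 were higher. The ratio of PBS to GB2 means was 0.932 with all tumors and 2.83 without GB2 tumor 1. Mup3 alone gave 1.36, 8.96 and 10.4 counts per 100 Alb counts in PBS tumors and 0, 1.46 and 1.89 in GB2 tumors. Mup20 gave 0.843, 3.51 and 6.24 against 0, 1.05 and 0.968. In GB2 tumor 1 the 0 of both genes rests on 109 Alb counts, which is too few to rank that tumor. Among the other tumors, PBS tumors 2 and 3 were again the high ones in both genes.

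Liver genes with higher levels in males than in females were set beside the family as well. The 6 genes (Cyp2d9, Cyp4a12a, Cyp4a12b, Hsd3b5, Serpina1e and Slco1a1) were chosen after their values were seen, so their order of tumors is fixed by that choice and they are given as values only. Serpina1e, a protease inhibitor of plasma, had 103, 2315 and 1756 counts in PBS tumors and 6, 227 and 103 in GB2 tumors. The steroid hydroxylase Cyp2d9 had 117, 337 and 278 against 4, 280 and 141. The transporter Slco1a1 had 16, 77 and 61 against 0, 49 and 7. Cyp4a12a, a fatty acid hydroxylase, had 0, 75 and 34 against 0, 17 and 0. In CPM, PBS tumors 2 and 3 were the highest in each of these 4 genes. Per 100 liver-list counts, the 6 genes together gave 0.624, 4.83 and 5.83 in PBS tumors and 1.95, 0.951 and 0.616 in GB2 tumors, where the value of GB2 tumor 1 rests on 10 counts. Of 7 female-biased liver genes chosen in the same way, 4 were in the table. Cyp2a4 had 38, 0 and 0 counts in PBS tumors and 0, 50 and 51 in GB2 tumors, and Cyp2b9 had 32, 29 and 0 against 0, 46 and 37. Cyp3a41a had 0, 9 and 0 counts against 17, 9 and 0, and Cyp3a41b had 0, 9 and 0 against 10, 11 and 0. The 4 genes did not share an order of tumors.

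**Figure D4:**
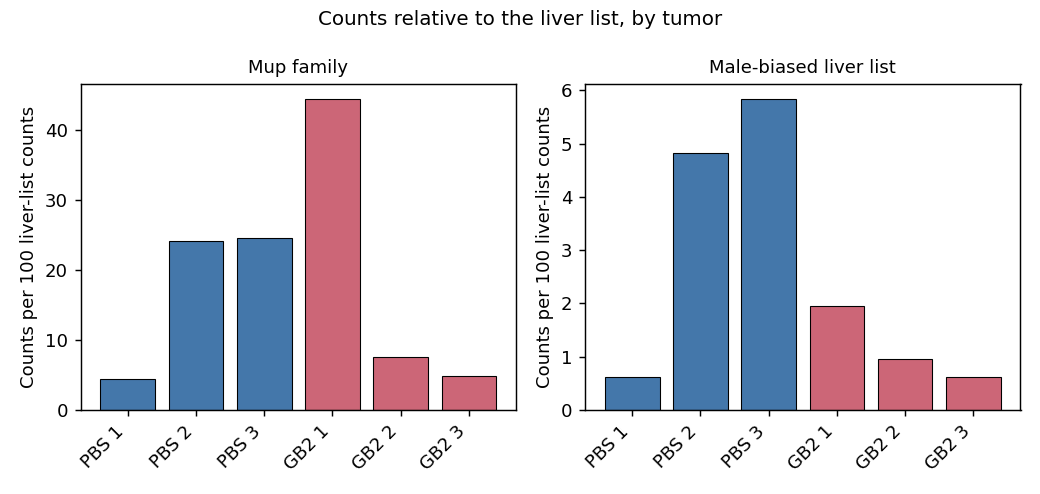
Counts of the Mup family (left) and of the 6 male-biased liver genes (right) per 100 counts of the liver list, 1 bar per tumor. PBS tumors 2 and 3 (24.2 and 24.5 Mup counts) stand above PBS tumor 1 (4.35) and GB2 tumors 2 and 3 (7.62 and 4.88), while GB2 tumor 1 (44.4) had few counts of either kind.

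Genes that control Mup transcription in the liver had small differences in both directions, with exceptions. In this list of 16 genes of growth hormone signalling and hepatic transcription, 14 passed the filter, 10 higher and 4 lower in GB2 tumors, with a median log2 fold change of 0.12 and 0 called. The most abundant were Stat5b (0.26), which carries the growth hormone signal, Nr3c1 (0.04), the glucocorticoid receptor, and Jak2 (0.10), the kinase of the growth hormone receptor. Zhx2 (0.06), a repressor of liver genes, had 20.1 to 22.6 CPM in PBS tumors and 19.5 to 23.6 CPM in GB2 tumors, so the groups overlapped. These genes are expressed in many cell types. The most negative of the 14 was Cux2 (-1.23), a repressor of male-biased genes in female liver, named here after its values were seen. It had 0.676, 1.25 and 1.49 CPM in PBS tumors and 0.703, 0.289 and 0.459 CPM in GB2 tumors. PBS tumors 2 and 3 were its highest, and the groups overlapped. Cux2 was the 1 listed gene that edgeR counted as lower at an unadjusted p below 0.05 and a fold of 2 or more. The share of all genes tested was 0.918%. Hnf4a, the transcription factor of hepatocytes, had 192, 191 and 205 counts in PBS tumors and 4, 226 and 168 in GB2 tumors. Like Alb, it was far lower in GB2 tumor 1 than in the other 5 tumors, and PBS tumors 2 and 3 did not stand above the rest.

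Other lipocalins, which share the barrel fold of the Mup proteins, differed from member to member. Of 18 listed, 12 were in the table and 10 passed the filter, 2 higher and 8 lower in GB2 tumors, with a median log2 fold change of -0.63 and 0 called. Ptgds, a prostaglandin synthase of many tissues, had 53100, 55973 and 62812 counts in PBS tumors and 82209, 96761 and 46926 in GB2 tumors. The liver-made Ambp had 825, 929 and 898 counts against 3, 1002 and 960. Rbp4, the retinol carrier of plasma, had 722, 1127 and 544 against 79, 1157 and 864. Ambp and Rbp4 were lowest in GB2 tumor 1, and in the other 5 tumors they did not separate PBS tumors 2 and 3 from the rest. In 3 of the 10 (Ambp, Orm1 and Apom) every GB2 tumor lay below every PBS tumor in CPM, and in 0 above. Of all genes tested, 6.68% lay below in this way. Orm1 and Apom were named after their values were seen. EdgeR counted 1 of the 10 as lower at an unadjusted p below 0.05 and a fold of 2 or more, beside 0.918% of all genes. Without GB2 tumor 1, 7 of the 10 were lower and the median was -0.27.

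Marker lists of other tissues in or near a tumor under the skin had a median log2 fold change above 0 in 6 lists and below 0 in 3, the brown adipocyte, erythroid and salivary lists. Their part in the Mup result was not tested. All 11 adipocyte genes were higher in GB2 tumors (median log2 fold change 0.65), led by Fabp4 (0.65), Car3 (0.48) and Cfd (0.68), and their sum was lowest in PBS tumor 3, a tumor with many Mup counts. All 10 skeletal muscle genes were higher (median 0.66), with Acta1 (0.95), Myh1 (0.75) and Myh4 (0.44) the most abundant. The muscle sums, 109 to 182 CPM in PBS and 227 to 257 CPM in GB2 tumors, did not overlap. Of 9 keratinocyte genes tested, 6 were higher (median 0.22), among them Krt5 (0.91) and Krt14 (1.29), while Sbsn (-0.54) was lower. All 8 macrophage genes were higher (median 1.94), with Lyz2 (2.11), Cd68 (1.37) and C1qa (1.68) the most abundant. The macrophage sums, 61.8 to 86.9 CPM in PBS and 245 to 343 CPM in GB2 tumors, did not overlap. Of 5 tumor epithelium genes tested, 5 were higher (median 0.41), among them Cdh1 (0.50), Krt18 (0.28) and Krt8 (0.41). The 4 brown adipocyte genes had a median of -0.63, with Cox7a1 (-0.75), Elovl3 (-0.52) and Cidea (0.04), and 3 of them were lower. Their sums were 2.23, 2.65 and 1.99 CPM in PBS tumors and 1.71, 1.35 and 1.80 CPM in GB2 tumors, so the groups did not overlap, and PBS tumor 2 was the highest. The 5 erythroid genes were lower (median -2.93), with Hbb-bs (-2.67), Hba-a1 (-2.93) and Hba-a2 (-3.08). Their sums were 7473, 2691 and 507 CPM in PBS tumors and 1271, 116 and 94.6 CPM in GB2 tumors, with PBS tumor 1 the highest. In the mammary gland, a known site of Mup expression, the milk protein genes Wap and Csn1s2a were at 0 counts in all tumors, Lalba and Glycam1 had at most 12, and Csn3 (1.74) was the 1 gene that passed the filter, of 8 listed and 6 in the table. Amylase (Amy1, -0.39), the 1 salivary and lacrimal gene in the table, had 131, 172 and 57 counts in PBS tumors and 42, 217 and 90 in GB2 tumors. EdgeR called 0 genes in any of these lists.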

How the data were processed

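Poly-A selected, stranded, paired-end libraries of 6 MC38 tumors were analysed. The authors deposited 1 table with counts and FPKM per gene and tumor. The deposited counts are whole numbers, not scaled between tumors, with values of 4 (7017) outnumbering values of 3 (2984) and 5 (2017), so 1 read pair is worth about 4 counts. Deposited FPKM are scaled by the authors to length and library total. The submitters' processing notes name cutadapt 1.9, HISAT2 2.2.1, StringTie 2.1.6, DESeq2, edgeR and mm10. How reads that fit several Mup genes were assigned is not given in the sources used here. Of 31999 genes shared with GENCODE vM21 (GRCm38), 641 agree in start and end. The table's positions are therefore printed as given and not mixed with GRCm38 positions.

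Counts were fitted with edgeR 4.0.16 in R 4.3.3: filterByExpr (minimum count 10, 19602 genes kept), TMM scaling, glmQLFit and glmQLFTest, GB2 against PBS, Benjamini-Hochberg adjustment over all genes tested. CPM use TMM-scaled library sizes. The fit was tested on simulated counts. Alternatives were other size factors, no filter, counts divided by 4, each tumor left out, DESeq2 1.42.0, a replicate block, and limma 3.58.1 on log2(FPKM + 1) or log2(FPKM + 0.1). With 3 tumors per group and about 4 counts per pair, counting error understates the true error, and p-values measure the spread between these samples only. Coding identity was the edit distance over the longer sequence, and windows were compared among Mup transcripts only. Members with a mean count of at least 10 were described by tumor, and of each list the 3 most abundant genes were named. The members and the lists (liver, adipocyte, brown adipocyte, mammary gland, keratinocyte, skeletal muscle, salivary and lacrimal gland, tumor epithelium, macrophage, erythroid, control of Mup genes, other lipocalins, vomeronasal transduction) were chosen with earlier results of these data known.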

Additional observations from a re-analysis of the deposited data

How the results depend on the processing

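The number of genes called over the whole table was 0 by edgeR and in each alternative except DESeq2, which called 385. Leaving out any 1 tumor also gave 0. The log2 ratio of summed Mup CPM, GB2 to PBS, was -2.15 with all tumors and kept its direction under other size factors, the filter, counts divided by 4 and FPKM. Leaving out each tumor gave -3.21 to -1.52. Relative to the liver list, an alternative chosen after the data were seen, it was 0.10, and -1.50 without GB2 tumor 1. The members with every GB2 tumor on 1 side of every PBS tumor numbered 5, and 5 to 13 when each tumor was left out (13 without PBS tumor 1, and 10 if GB2 tumor 2 is omitted). The share of all genes tested on 1 side was 15.3% with all tumors, 26.5% without PBS tumor 1, 21.6% without GB2 tumor 2 and at most 30.3%, without PBS tumor 3. Of 271 log2 fold changes of the 21 members under the alternatives, 254 were negative. The 17 positive ones belong to Vmn1r4, Mup1, Mup9 and Mup10. Sizes moved more than signs. By limma on log2(FPKM + 1), Mup7 was at -3.04, Mup13 at -1.72 and Mup16 at -1.58. On log2(FPKM + 0.1) the same genes were at -4.72, -2.62 and -3.39. With the tumor number as a replicate block, 0 genes were called. The numbers do not pair the tumors, whose deviations correlated at 0.03, 0.15 and -0.24. Depth limits the receptors and Mup21, whose counts were near the detection limit.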

Other observations

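Genes of the sex chromosomes were read in the same tumors, because Mup genes differ between the sexes in liver. The study's methods name female mice. Xist, the RNA of the inactive X chromosome, had 683, 1148 and 600 counts in PBS tumors and 2314, 1530 and 2217 in GB2 tumors. The Y-linked Ddx3y had 69, 40 and 36 counts against 139, 134 and 144, and Eif2s3y had 79, 53 and 42 against 92, 127 and 106. Kdm5d had 30, 27 and 8 against 42, 54 and 46, and Uty had 26, 21 and 6 against 25, 28 and 18. Both Xist and Y-linked genes were found in each tumor. All 5 genes had a log2 fold change above 0, with a median of 0.75 and 0 called. Xist had 8.49 to 16.3 CPM in PBS and 18.4 to 27.6 CPM in GB2 tumors. Ddx3y had 0.509 to 1.17 CPM in PBS and 1.61 to 1.69 CPM in GB2 tumors. The groups did not overlap in these 2 genes, and 15.3% of all genes tested lay on 1 side. They overlapped in Eif2s3y, Kdm5d and Uty. PBS tumors 2 and 3, with most Mup counts, were not the highest in any of the 5 genes. The 5 genes were chosen after the Mup values were seen, and these are values with no test.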
